A study of Mus musculus with 27 samples.

Results

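Gene expression was compared between C2C12 myoblasts expressing full-length NFIA and control C2C12 myoblasts at day 0, before adipocyte differentiation was induced. The comparison used the 3 samples labelled NFIA day 0 and the 3 samples labelled control day 0, which are 6 of the 27 samples of the series, and all genes of the deposited tables. The series holds RNA-seq of polyadenylated RNA from control cells, cells with full-length NFIA and cells with the Δpro#3 mutant, which were taken at day 0, at day 7 of an adipogenic protocol, and at day 7 with forskolin. Both groups used here were the same mouse line, carried no agent according to their treatment label (none), were kept in growth medium with fetal bovine serum, and had not yet received the adipogenic cocktail that the labels' protocol gives for differentiation (isobutylmethylxanthine, indomethacin, dexamethasone, insulin, T3 and rosiglitazone). C2C12 cells are an established mouse line that, on serum withdrawal, leaves the cell cycle and fuses into contractile myotubes. The full-length NFIA cells carried a FLAG-tagged NFIA from a pMXs retroviral vector, so that the factor was expressed from a viral promoter. The labels of the control samples do not say more than control. Nothing in the labels says that the 3 replicates of a group came from separate infections or cultures. The p-values and standard errors (SE) then measure only the spread between the samples fitted, which include the 3 Δpro#3 samples of day 0.

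NFIA is 1 of the 4 NFI proteins of vertebrates, transcription factors that bind a palindrome of TTGGC and GCCAA or a single arm of it. It is known for its part in brown fat, glial and haematopoietic development. Muscle differentiation is driven by the basic helix-loop-helix factors MyoD, Myf5, myogenin and MRF4, which bind E-boxes at muscle promoters, and proliferating C2C12 cultures at high density already hold some cells that have begun to express contractile genes. Adipocyte differentiation is driven by PPARγ and the C/EBP factors, and connective tissue cells secrete the collagens, elastic fibre proteins and small proteoglycans of the matrix.

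Values are FPKM, that is fragments per kilobase of gene relative to all fragments of the sample. The tables hold 24825 genes. The control samples held 23722429 to 27230965 fragments and the NFIA samples 11323688 to 25630237, with NFIA replicate 3 the shallowest, and 14968 to 15864 genes were above 0 in a sample. Nfia itself was at 0.879, 7.35 and 0.175 FPKM in control replicates 1 to 3, against 225, 249 and 250.2 FPKM in the NFIA replicates, which matches the labels. Fragments of the introduced and of the endogenous gene cannot be told apart. The FPKM of Nfia uses a gene length of 9643 bases, which may differ from that of the introduced transcript. Its level is therefore not set against those of other genes. The log2 fold change of FPKM + 1 for Nfia was 6.52 ± 0.54 (SE; limma, adjusted p = 9.00e-07). Control replicate 2 had the highest Nfia level of the 3 controls, 3.04% of the NFIA mean, and leaving it out gave a log2 fold change of 7.35 (adjusted p = 1.46e-10). Several genes that NFIA raised were also higher in control replicate 2 than in the other controls, such as Clec3b (2.90% of the NFIA mean), Prelp (2.64%), Penk (2.499%), Agt (1.63%) and Gfpt2 (1.35%), whereas Eln was at 0.721% and Fmod at 0.515%. Control replicate 2 was the highest of the 3 controls for 174 of the 298 genes raised by NFIA (58.4%), against 28.0% of all genes tested. Raised genes for which it was not the highest include Sfrp1, Fabp4 and S100b. Over all genes, by contrast, control replicate 1 was the highest most often (42.2%), and control replicates 2 and 3 were the most alike pair. Whether its fragments of Nfia and of these genes came from the control cells themselves was not tested, and the control means of these genes and the fold of Nfia are read with that limit. The part of control replicate 2 in the results was not tested beyond leaving it out, which gave 314 raised and 343 lowered genes. Of the called genes, Nfia was the one that moved by over 1.5 times, and log2 fold changes without it were 6.07 for Prelp, 5.76 for Clec3b and 6.92 for Fmod.

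**Figure D1:**
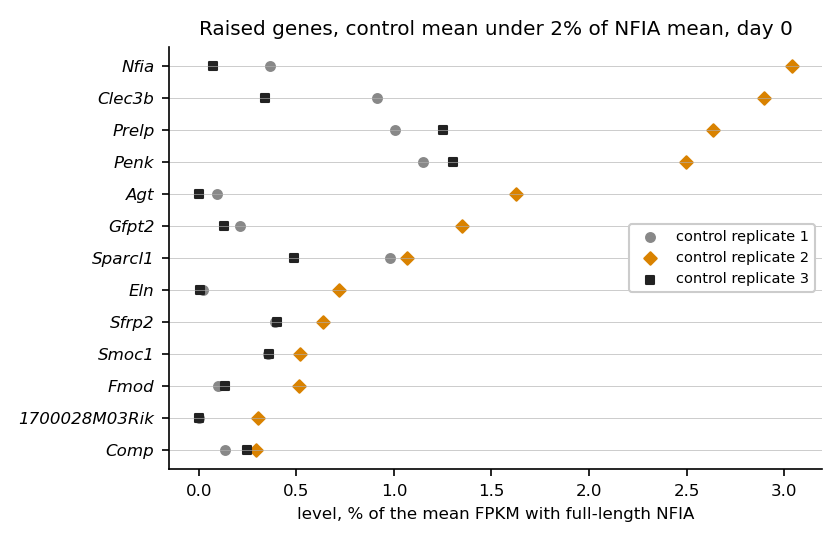
Levels in each of the 3 control samples, as a percentage of the gene's mean FPKM in the 3 NFIA samples (horizontal axis, linear), of the 13 raised genes with an NFIA mean of 20 FPKM or more and a control mean under 2% of it, a choice made after their values were seen. Control replicate 2 (diamonds) lies to the right of replicates 1 and 3 for these 13 genes, up to 3.04% for Nfia.

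Expression was tested on log2(FPKM + 1) over the 12105 genes with a mean of 0.5 FPKM or more, and a gene is called raised or lowered here when its limma adjusted p was under 0.05 and FPKM + 1 changed more than 3-fold. Full-length NFIA raised 298 genes (2.46% of those tested) and lowered 336 (2.78%). For none of the 634 called genes (5.24%) did the samples of the groups overlap, but this held for 74.8% of all genes tested, and 37.7% of genes were higher and 35.6% lower by the adjusted p alone. The median log2 fold change was 0.01 over all genes, 2.21 over the raised and -2.20 over the lowered genes, and 70 genes rose and 79 fell more than 8-fold. The largest adjusted p was 0.000101 among raised and 0.00868 among lowered genes. In terms of fragments, the raised genes took 0.835 to 0.915% of a control sample and 5.28 to 5.44% of an NFIA sample (5.06 to 5.19% without Nfia), and the lowered genes took 4.30 to 4.41% and 0.646 to 0.665%. Since FPKM + 1 is compared, folds of genes with low values are understated. In bulk RNA, fewer cells that express a gene and less RNA per cell cannot be told apart, and this holds for each result here.

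**Figure D2:**
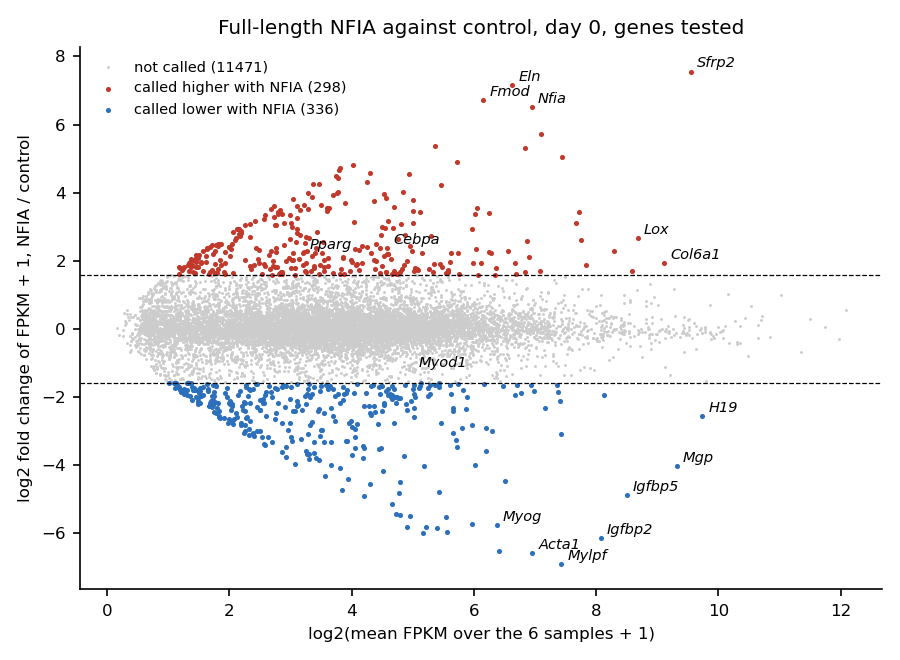
Log2 fold change of FPKM + 1, full-length NFIA over control at day 0 (vertical axis), against log2 of the mean FPKM over the 6 samples + 1 (horizontal axis) for the 12105 genes tested. Red points are the 298 genes called higher and blue points the 336 called lower, and dashed lines mark a 3-fold change. Sfrp2, Col6a1 and Lox were raised genes with high levels, and H19, Mgp, Igfbp5 and Igfbp2 lowered genes with high levels.

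Genes of muscle fibres fell together in full-length NFIA-expressing cells. Of 55 sarcomere genes listed, 40 were tested, 31 were lowered and none was raised, with a median log2 fold change of -3.03, and their summed level went from 3113 to 3301 FPKM in control samples to 642 to 689 FPKM. The fall was steepest for Mylpf, the fast skeletal regulatory myosin light chain (chr7:134355122-134357812, plus strand, NCBIM37), which was at 370.4, 317 and 332 FPKM in control replicates 1 to 3 and 1.98, 1.67 and 1.75 FPKM in the 3 NFIA replicates. Acta1, skeletal muscle α-actin, was at 243, 238 and 253 FPKM in control cells and 1.37, 1.51 and 1.74 FPKM with full-length NFIA, and Actc1, cardiac α-actin, which embryonic muscle also uses, at 169.97, 161 and 171 FPKM in control cells and 0.829, 0.598 and 1.09 FPKM with full-length NFIA. All NFIA samples were far below all control samples for these 3 genes (log2 fold changes of -6.93 ± 0.09, -6.60 ± 0.05 and -6.52 ± 0.08, limma adjusted p at most 5.28e-13).

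The embryonic myosin heavy chain Myh3 was at 69.1, 68.5 and 71.3 FPKM in control cells and 0.1302, 0.132 and 0.0442 FPKM with full-length NFIA, and the essential light chain Myl1 at 87.3, 79.6 and 78.3 FPKM in control cells and 0.527, 0.321 and 0.398 FPKM with full-length NFIA. Both were close to absent with NFIA, below 1 FPKM in each replicate. The troponin complex, which gates contraction by calcium, was lowered in its slow and fast forms alike. Its inhibitory subunits Tnni1 and Tnni2 were at 95.9, 85.9 and 92.9 FPKM in control cells and 0.525, 0.605 and 0.317 FPKM with full-length NFIA and at 52.2, 46.96 and 52.7 FPKM in control cells and 0.0585, 0.238 and 0.265 FPKM with full-length NFIA, respectively, and the tropomyosin-binding subunit Tnnt3 at 94.8, 86.3 and 90.4 FPKM in control cells and 0.835, 0.672 and 1.497 FPKM with full-length NFIA. Mybph, a myosin-binding protein of the thick filament, had 73.5, 69.8 and 72.9 FPKM in control cells and 0.234, 0.129 and 0.529 FPKM with full-length NFIA, and Pdlim3, a Z-disc protein, 125, 119.8 and 119 FPKM in control cells and 1.04, 1.16 and 1.79 FPKM with full-length NFIA. Log2 fold changes of these genes lay between -6.00 (Myh3) and -5.45 (Tnni2), with an SE of at most 0.12. Titin (Ttn, -3.01) and nebulin (Neb, -3.06), the giant ruler proteins of the filaments, were also among the 31 lowered genes. By the adjusted p alone, 38 members were lower and 1 was higher. The falls were of unequal size. Desmin (Des), the muscle intermediate filament, kept 119, 115 and 109 FPKM of 454, 442 and 439 FPKM (-1.95 ± 0.03), and Tpm1, a tropomyosin that other cells also use, had 310.2, 288 and 295 FPKM in control cells and 129, 128 and 124 FPKM with full-length NFIA, which was less than 3-fold lower (-1.22 ± 0.03). Another 8 tested members were not called, among them Tpm2 (-1.09), Tpm3 (-0.08) and the chaperone Cryab (0.63), and the 15 untested members were at 1.64 FPKM or less.

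Excitation, calcium handling and fusion genes behaved alike: 22 of the 33 tested (of 37 listed) were lowered, none was raised, and their median log2 fold change was -2.28. The embryonic acetylcholine receptor, the channel through which nerve signals reach muscle, lost its δ subunit Chrnd (51.2, 53.1 and 54.5 FPKM in control cells and 0.197, 0.2005 and 0.208 FPKM with full-length NFIA) and its γ subunit Chrng (47.4, 49.6 and 47.9 FPKM in control cells and 0.284, 0.309 and 0.552 FPKM with full-length NFIA). Mymk (myomaker), the membrane protein that fuses myoblasts, was at 61.4, 59.1 and 58.6 FPKM in control cells and 0.261, 0.345 and 0.414 FPKM with full-length NFIA (log2 fold change -5.50 ± 0.06). Ckm, the muscle creatine kinase, fell from 25.7, 27.2 and 26.8 FPKM to 0.0276, 0.02801 and 0.0624 FPKM. Each of these 4 genes was below 1 FPKM in every NFIA replicate and between 25.7 and 61.4 FPKM in every control replicate. Cdh15 (M-cadherin), an adhesion molecule that myoblasts express before fusion, retained more, with 138, 136 and 140.2 FPKM in control cells and 16.4, 16.5 and 16.2 FPKM with full-length NFIA (-3.00 ± 0.03). Myof (myoferlin), a membrane repair protein that is not restricted to muscle, hardly moved, with 83.6, 87.1 and 86.8 FPKM in control cells and 72.5, 75.5 and 72.4 FPKM with full-length NFIA (-0.22 ± 0.03).

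Upstream regulators were affected to unequal degrees. Myog (myogenin), the factor that starts terminal differentiation (chr1:136186581-136189124), was at 168, 156 and 161 FPKM in control replicates 1 to 3 and 1.98, 1.77 and 2.15 FPKM in the 3 NFIA replicates (log2 fold change -5.78 ± 0.06, adjusted p = 1.55e-13). Myf5, which marks committed myoblasts, was at 27.5, 30.1 and 28.02 FPKM in control cells and 2.604, 3.01 and 2.97 FPKM with full-length NFIA (-2.94 ± 0.05). Myod1 had 40.9, 45.8 and 44.6 FPKM in control cells and 17.5, 18.3 and 17.6 FPKM with NFIA. Its groups did not overlap and its adjusted p was 7.93e-10, but the change of -1.25 ± 0.04 stayed below 3-fold, so that Myod1 was not called. Myf6 (MRF4), which had a mean below 0.5 FPKM and was not tested, was at 0.844, 0.765 and 0.768 FPKM in control cells and 0.0313, 0.0953 and 0 FPKM with NFIA. The satellite cell factor Pax7 was below 1 FPKM in all 6 samples (0.887, 0.936 and 0.9501, then 0.785, 0.723 and 0.6197).

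Klf5, a Krüppel-like factor, was at 9.07, 10.6 and 11.7 FPKM in control cells and 1.15, 0.85002 and 1.18 FPKM with full-length NFIA (-2.47 ± 0.09), and Heyl, a Notch-responsive repressor, at 21.2, 20.6 and 21.8 FPKM in control cells and 2.51, 2.73 and 2.98 FPKM with full-length NFIA (-2.57 ± 0.05). Both groups were again separate for each gene. In all, 6 of 22 tested regulators were lowered (Myog, Myf5, Heyl, Klf5, Msc and Tead4) and 1 was raised. The raised one was Id2, an inhibitor that sequesters the E-protein partners of MyoD, with 21.2, 21.2 and 20.8 FPKM in control cells and 74.9, 74.1 and 68.7 FPKM with full-length NFIA (1.74 ± 0.03). Its relatives Id1 (1.57 ± 0.09) and Id3 (135, 135 and 131 FPKM in control cells and 321, 312 and 269 FPKM with full-length NFIA, 1.16 ± 0.06) were higher by less than 3-fold. The MEF2 factors Mef2a (-1.27), Mef2c (-0.40) and Mef2d (-0.42) and the homeobox factor Six4 (-0.83) were not called. The embryonic light chain Myl4 was also lowered (35.2, 29.5 and 34.1 FPKM in control cells and 1.14, 1.68 and 1.54 FPKM with full-length NFIA, -3.79 ± 0.11), and Myh8, a perinatal myosin below the test's minimum, was at 0.9805, 0.914 and 1.12 FPKM and 0.0127, 0.0322 and 0.0431 FPKM.

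The promoters of the 3 genes with the steepest falls and of 3 of those with the steepest rises are shown. The genes were chosen by their change, so that the letters known to be read by muscle factors and by NFI can be seen. The sequences are the 250 bases before the start site in the RefSeq promoter table (GRCm38.p6), taken from the first entry for each gene. They were located by exact match in NCBIM37, whose coordinates are given, and are written 5′ to 3′ on the gene's strand. Capitals mark matches to the motifs searched on both strands, which were the NFI palindrome (TTGGC and GCCAA with 5 bases between) and its part TTGGCA, the E-boxes CAGCTG and CACCTG, the CArG box of serum response factor, the MEF2 site and TATAAA. Over 32851 promoters of this length, 12.3% held TTGGCA, 13% CAGCTG, 17.2% CACCTG, 1.47% a CArG box, 2.92% a MEF2 site, 12.4% TATAAA and 0.0365% the full NFI palindrome.
Mylpf, chr7:134354872-134355121, plus strand: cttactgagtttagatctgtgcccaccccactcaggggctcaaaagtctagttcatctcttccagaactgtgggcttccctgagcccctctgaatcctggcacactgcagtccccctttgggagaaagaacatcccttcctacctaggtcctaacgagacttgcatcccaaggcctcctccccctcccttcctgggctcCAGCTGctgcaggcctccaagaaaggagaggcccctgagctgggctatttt
Acta1, chr8:126418676-126418925, minus strand: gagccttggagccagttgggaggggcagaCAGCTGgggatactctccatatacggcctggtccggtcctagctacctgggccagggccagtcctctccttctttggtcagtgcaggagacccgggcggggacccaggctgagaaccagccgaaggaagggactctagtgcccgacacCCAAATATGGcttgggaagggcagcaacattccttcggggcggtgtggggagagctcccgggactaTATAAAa
Actc1, chr2:113878612-113878861, minus strand: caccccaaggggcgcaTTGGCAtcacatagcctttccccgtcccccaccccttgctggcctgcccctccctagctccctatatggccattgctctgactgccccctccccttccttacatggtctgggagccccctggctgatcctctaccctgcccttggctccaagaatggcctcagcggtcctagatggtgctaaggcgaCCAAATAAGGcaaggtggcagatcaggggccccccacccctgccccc
Sfrp2, chr3:83569993-83570242, plus strand: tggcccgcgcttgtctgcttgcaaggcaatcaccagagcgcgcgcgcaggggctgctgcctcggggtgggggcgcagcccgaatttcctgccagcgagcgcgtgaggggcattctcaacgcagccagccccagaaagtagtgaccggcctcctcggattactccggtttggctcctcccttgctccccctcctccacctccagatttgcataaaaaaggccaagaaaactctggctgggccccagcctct
Fmod, chr1:135933581-135933830, plus strand: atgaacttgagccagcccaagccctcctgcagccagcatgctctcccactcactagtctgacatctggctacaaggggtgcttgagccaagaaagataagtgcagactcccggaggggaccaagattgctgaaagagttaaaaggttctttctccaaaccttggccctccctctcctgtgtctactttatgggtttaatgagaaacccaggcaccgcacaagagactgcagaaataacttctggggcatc
Prelp, chr1:135817979-135818228, minus strand: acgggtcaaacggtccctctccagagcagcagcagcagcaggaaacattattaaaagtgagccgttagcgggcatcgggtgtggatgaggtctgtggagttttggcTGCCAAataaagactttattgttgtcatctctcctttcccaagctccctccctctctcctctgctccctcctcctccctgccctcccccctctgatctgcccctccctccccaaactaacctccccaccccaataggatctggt

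The Mylpf promoter held CAGCTG at -51 to -46 (counted from the start site), and the Acta1 promoter held CAGCTG at -221 to -216, a CArG box at -73 to -64 and TATAAA at -7 to -2. In the Actc1 window, a CArG box lay at -47 to -38 and TTGGCA at -234 to -229. That window lies inside Actc1 as annotated (chr2:113873018-113879284, minus strand). Its positions thus count from another start site than the annotated one. The Sfrp2 and Fmod windows held none of the motifs searched, although both hold the single arms TTGGC and GCCAA, which were not searched on their own, and the Prelp window held the complement TGCCAA of the NFI part at -144 to -139. A match is a description of letters, and a window without one says nothing about binding elsewhere. The table had no entry for Eln. It covered 73.8% of raised genes and 69.3% of those lowered, which is too few to compare the share of promoters with a motif between them.

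Outside muscle structure, the largest drops in FPKM among called genes were in genes that were abundant in control cells. They were the secreted or imprinted Igfbp2, Igfbp5, H19 and Mgp and the enzyme Car3. Igfbp2, a secreted binding protein that limits IGF signalling, was at 541, 524 and 527 FPKM in control replicates 1 to 3 and 6.23, 6.02 and 7.11 FPKM in the 3 NFIA replicates (log2 fold change -6.16 ± 0.06, adjusted p = 7.91e-14). Igfbp5, which myoblasts secrete as they differentiate, was at 671, 698 and 725 FPKM in control cells and 20.8, 22.7 and 24.6 FPKM with full-length NFIA (-4.89 ± 0.05). For both genes the lowest control sample lay far above the highest NFIA sample. H19, an imprinted non-coding RNA of growing tissue, was at 1454, 1483 and 1447 FPKM in control cells and 233, 260.3 and 240.2 FPKM with full-length NFIA (-2.58 ± 0.04), and Mgp, the inhibitor of calcification matrix Gla protein, at 1261, 1186 and 1161 FPKM in control cells and 69.8, 78.04 and 69.8 FPKM with full-length NFIA (-4.03 ± 0.05). Car3, a carbonic anhydrase of muscle and fat, was at 315, 307 and 298 FPKM in control cells and 28.2, 35.4 and 43.9 FPKM with full-length NFIA, with more spread among the NFIA replicates than the others (-3.09 ± 0.12). Fgf21, a circulating metabolic hormone, fell by far less in FPKM, with 25.95, 26.3 and 24.3 FPKM in control cells and 0.577, 0.4603 and 0.653 FPKM with full-length NFIA (-4.08 ± 0.06).

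Among guidance cues of axons and vessels, more genes were lowered than raised: 10 of 45 tested members (of 61 listed) were lowered and 1, Sema3f (2.56), was raised, with a median log2 fold change of -0.58. Lrrn1, a leucine-rich repeat membrane protein, was at 60.3, 57.4 and 56.8 FPKM in control cells and 0.0208, 0.0317 and 0.0705 FPKM with full-length NFIA (-5.83 ± 0.05). Among the semaphorins, repulsive signals to growing axons, Sema6a was at 21.6, 21.4 and 21.8 FPKM in control cells and 0.107, 0.115 and 0.154 FPKM with full-length NFIA, Sema5a at 18.99, 20.7 and 21.3 FPKM in control cells and 1.14, 1.104 and 1.09 FPKM with full-length NFIA and Sema3e at 21.9, 21.7 and 22.6 FPKM in control cells and 1.405, 1.33 and 1.21 FPKM with full-length NFIA. All 4 of these genes were near 1 FPKM or below it with NFIA. Sema3d (-2.42), Sema3a (-1.98) and Sema3e (-3.32) lie next to each other among the tested genes of chromosome 5 and were all lowered. The most abundant members, Plxnb2 (0.45) and Ephb6 (0.91), were not called.

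In the Notch pathway, through which neighbouring cells signal by contact, 5 of 17 tested genes (of 26 listed) were lowered. Notch3, a receptor, was at 44.4, 48.3 and 50.7 FPKM in control cells and 9.56, 9.19 and 9.51 FPKM with full-length NFIA (-2.23 ± 0.06), and Hes6, a transcriptional cofactor expressed in myoblasts, at 41.7, 42.7 and 42.8 FPKM in control cells and 9.12, 8.78 and 7.81 FPKM with full-length NFIA (-2.18 ± 0.05). The ligands Dll1 (-1.988) and Jag2 (-1.73) were also lowered, as was Heyl. Lfng (lunatic fringe), which adds sugars to the receptor and changes its response to ligands, was the raised member, with 7.31, 7.15 and 8.22 FPKM in control cells and 36.7, 37.4 and 35.03 FPKM with full-length NFIA (2.13 ± 0.05). Notch2, another receptor, had 41.8, 45.8 and 46.1 FPKM in control cells and 26.6, 26.6 and 28.8 FPKM with full-length NFIA and was not called (-0.68 ± 0.04).

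Chemokine and cytokine genes split, with 7 of 30 tested members (of 49 listed) lowered and 2 raised. Il1rn, the antagonist of the interleukin 1 receptor, was at 3.196, 3.38 and 3.49 FPKM in control cells and 57.5, 57.9 and 61.8 FPKM with full-length NFIA (3.79 ± 0.04), and Cxcl12, a chemokine of stromal cells, at 28.003, 26.8 and 28.2 FPKM in control cells and 100.4, 113 and 113 FPKM with full-length NFIA (1.93 ± 0.04). In the opposite direction, the scavenging CXCL12 receptor Ackr3 was at 20.4, 19.7 and 20.4 FPKM in control cells and 2.91, 3.196 and 3.54 FPKM with full-length NFIA (-2.33 ± 0.05) and the signalling receptor Cxcr4 at 21.8, 22.4 and 22.6 FPKM in control cells and 4.65, 5.75 and 5.11 FPKM with full-length NFIA (-1.92 ± 0.07). The ligand was higher and both of its receptors lower. Cxcl13, a lymphocyte attractant, was at 3.92, 3.097 and 3.86 FPKM in control cells and was listed at 0 in all 3 NFIA replicates, and the eosinophil attractant Ccl11 was at 3.58, 2.36 and 3.36 FPKM in control cells and 0.0727, 0.0369 and 0 FPKM with full-length NFIA. The myeloid growth factor Csf1 was higher by less than 3-fold (64.1, 67.99 and 62.95 FPKM in control cells and 136, 134 and 138 FPKM with full-length NFIA, 1.05 ± 0.03). Among 11 tested complement genes (of 26 listed), the most abundant, Colec12 (-0.77) and Masp1 (1.27), were not called. Of 40 tested interferon-stimulated genes, the peptide transporter Tap1 was raised (0.3001, 0.6598 and 0.364 FPKM in control cells and 4.85, 4.997 and 4.49 FPKM with full-length NFIA), none was lowered and the median log2 fold change was 0.38. The share raised in that list, 2.5%, was near the 2.46% of all genes.

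**Figure D3:**
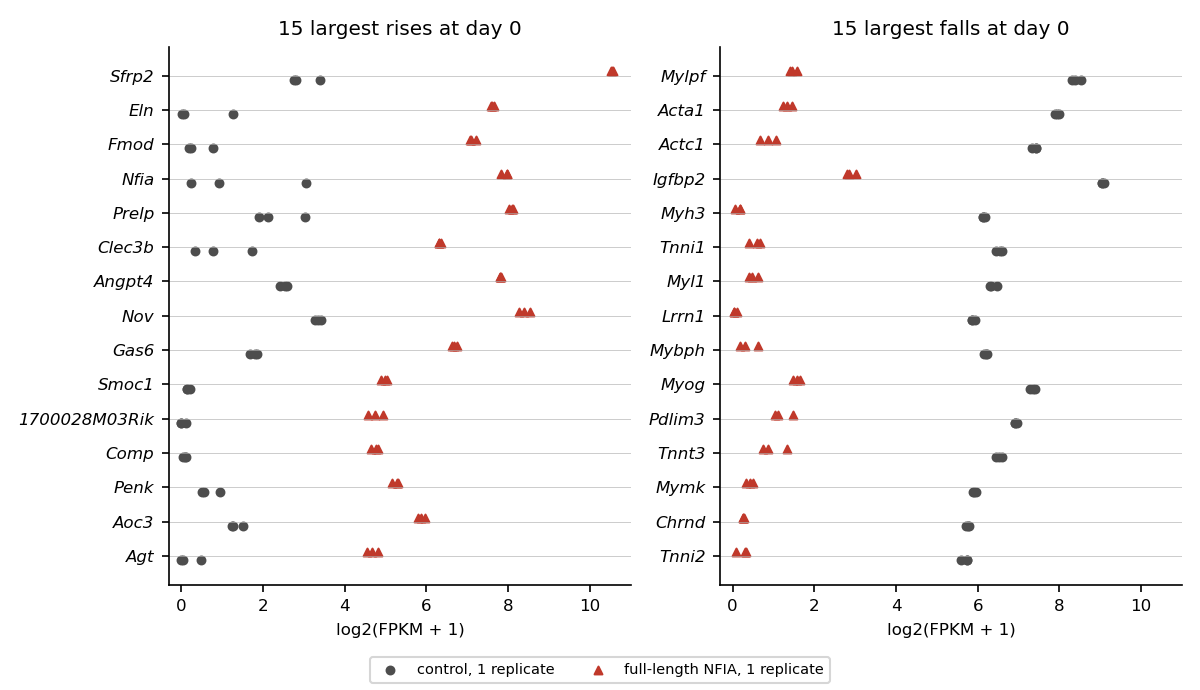
Log2(FPKM + 1) in each of the 6 samples for the 15 largest rises (left) and the 15 largest falls (right) among called genes with a mean of 1 FPKM or more; each point is 1 replicate, grey circles control and red triangles full-length NFIA. The replicates of a group lie close together and the groups lie far apart in each row, with control replicate 2 to the right of the other controls for Eln, Nfia, Prelp and Clec3b.

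The largest log2 fold change of any tested gene was that of Sfrp2, a secreted protein that binds Wnt ligands (chr3:83570243-83578238). It was at 5.79, 9.45 and 5.96 FPKM in control replicates 1 to 3 and 1487, 1503 and 1462 FPKM in the 3 NFIA replicates (log2 fold change 7.55 ± 0.13, adjusted p = 4.27e-12). By FPKM it ranked 6732 to 8342 among all genes in the control samples and 12 to 15 in the NFIA samples. Without control replicate 2 the log2 fold change was 7.75. Its relative Sfrp1 was at 0.0964, 0.0924 and 0.123 FPKM in control cells and 13.7, 14.4 and 15.1 FPKM with full-length NFIA (3.80 ± 0.05), and Fzd4, a Wnt receptor, at 2.69, 3.26 and 2.94 FPKM in control cells and 14.3, 13.6 and 14.5 FPKM with full-length NFIA (1.94 ± 0.05). Fzd9 (1.597) and the intracellular antagonist Nkd2 (1.64) made up the 5 raised of 29 tested Wnt pathway genes (of 47 listed). The lowered one was the ligand Wnt10a, which holds back adipocyte differentiation, with 12.9, 13.4 and 13.4 FPKM in control cells and 1.77, 1.76 and 2.43 FPKM with full-length NFIA (-2.26 ± 0.08). The median of the list was 0.90, and 12 members were raised with a pseudocount of 0.1 in place of 1.

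Elastic fibre genes followed. Eln, which encodes tropoelastin, the polymer of elastic fibres (chr5:135179651-135223111, minus strand), was at 0.0438, 1.402 and 0.00995 FPKM in control replicates 1 to 3 and 191, 199.7 and 193 FPKM in the 3 NFIA replicates (7.16 ± 0.26, adjusted p = 9.63e-10). It was thus almost silent in control replicates 1 and 3 and between 190.5 and 199.7 FPKM in each NFIA replicate, and without control replicate 2 its log2 fold change was 7.57. Fbln5, which carries tropoelastin onto the fibre, was at 4.64, 5.75 and 4.37 FPKM in control cells and 62.2, 64.3 and 61.8 FPKM with full-length NFIA (3.44 ± 0.07), and Mfap5, a microfibril protein, at 0.954, 1.05 and 0.893 FPKM in control cells and 19.02, 22.9 and 23.6 FPKM with full-length NFIA (3.53 ± 0.08). Lox, the lysyl oxidase that crosslinks elastin and collagen, rose from an already high level, with 107, 119 and 109 FPKM in control cells and 697, 702 and 721 FPKM with full-length NFIA (2.65 ± 0.04). In all, 7 of 20 tested genes (of 22 listed) were raised, which also included Ltbp1, Ltbp2 and Emilin2, and 2 were lowered, the fibulin Efemp1 (-1.61) and the oxidase Loxl2 (-1.83). The microfibril scaffold Fbn1 (-0.08) was not called. The summed level of the list was 788 to 833 FPKM in control samples and 2014 to 2034 FPKM in NFIA samples.

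Small leucine-rich proteoglycans bind collagen fibrils and set their spacing. Fmod (fibromodulin, chr1:135933831-135944854) was at 0.135, 0.717 and 0.184 FPKM in control replicates 1 to 3 and 134, 136 and 148 FPKM in the 3 NFIA replicates (6.73 ± 0.13, adjusted p = 7.27e-12), and Prelp, an anchor of collagen to basement membranes, at 2.704, 7.09 and 3.36 FPKM in control cells and 256, 274 and 276 FPKM with full-length NFIA (5.73 ± 0.22). Both went from single digits or below to a high level. Omd (osteomodulin) was at 5.17, 4.54 and 4.7003 FPKM in control cells and 26.3, 26.2 and 31.5 FPKM with full-length NFIA (2.32 ± 0.09), and Has2, which makes hyaluronan, at 3.34, 3.202 and 2.72 FPKM in control cells and 18.5, 16.7 and 18.4 FPKM with full-length NFIA (2.21 ± 0.06). These were the 4 raised of 21 tested genes (of 39 listed). The most abundant relatives did not follow: Bgn (biglycan) had 1116, 1171 and 1131 FPKM in control cells and 1801, 1836 and 1803 FPKM with full-length NFIA (0.67 ± 0.04), Ogn (mimecan) had 575, 545 and 528 FPKM in control cells and 391.7, 409.9 and 522 FPKM with full-length NFIA (-0.33 ± 0.09), and Lum (lumican) was lowered (-1.76 ± 0.12). The median of the list was -0.18.

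Collagens showed the same unevenness, with 7 of 25 tested chains (of 41 listed) raised and 1 lowered. The collagen VI chains Col6a1 and Col6a2, which form beaded filaments around cells, were at 225, 227 and 229 FPKM in control cells and 865, 888 and 865 FPKM with full-length NFIA, and at 57.9, 61.7 and 60.4 FPKM in control cells and 369.5, 373 and 362 FPKM with full-length NFIA, respectively (1.94 ± 0.03 and 2.60 ± 0.03). Among called genes, Col6a1 had the second largest gain in FPKM. Another 3 chains rose from about 1 FPKM or less. Col11a1, a regulator of fibril diameter, was at 0.481, 0.543 and 0.632 FPKM in control cells and 12.9, 12.4 and 11.8 FPKM with full-length NFIA, Col14a1, a fibril-associated collagen, at 1.09, 1.25 and 1.13 FPKM in control cells and 13.6, 14.5 and 14.02 FPKM with full-length NFIA, and Col2a1, the fibrillar collagen of cartilage, at 0.00821, 0.0143 and 0.0373 FPKM in control cells and 7.62, 6.79 and 5.97 FPKM with full-length NFIA. The main fibrillar chains moved by less than 3-fold and in different directions, Col1a2 to 1543, 1539.6 and 1539.9 from 743, 763 and 752 FPKM (1.03 ± 0.03) and Col3a1 to 1126, 1142 and 1093 from 1542, 1475 and 1494 FPKM (-0.42 ± 0.04). Col18a1, a basement membrane collagen, was the lowered chain (-1.65 ± 0.04).

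Matricellular proteins modulate cell contact with the matrix without building it, and 11 of 42 tested members of that list (of 49) were raised, with 1, Vtn (vitronectin, -1.80), lowered. Clec3b (tetranectin), a plasminogen-binding protein, was at 0.722, 2.295 and 0.2704 FPKM in control cells and 78.6, 78.2 and 81.01 FPKM with full-length NFIA (5.38 ± 0.26), and Nov (CCN3), a cysteine-rich signalling protein, at 8.73, 9.099 and 9.72 FPKM in control cells and 307, 335 and 371 FPKM with full-length NFIA (5.05 ± 0.06). Smoc1, a calcium-binding modulator of BMP signalling, was at 0.109, 0.158 and 0.1096 FPKM in control cells and 28.6, 30.7 and 31.9 FPKM with full-length NFIA (4.80 ± 0.05). Comp, a pentameric glycoprotein of cartilage and tendon, was at 0.0348, 0.0757 and 0.0632 FPKM in control cells and 27.3, 26.1 and 23.8 FPKM with full-length NFIA (4.66 ± 0.06). Smoc1 and Comp were almost silent in each control replicate and readily measured in each NFIA replicate. Ecm1 (100.4, 111 and 104 FPKM in control cells and 510.01, 508 and 537 FPKM with full-length NFIA, 2.29 ± 0.04) was among the 8 largest gains in FPKM of called genes. The most abundant members changed less: Sparc (osteonectin) had 1379.8, 1420.4 and 1386 FPKM in control cells and 2674, 2776 and 2912 FPKM with full-length NFIA (1.00 ± 0.04), and Fn1 (fibronectin) had 1614, 1806 and 1873 FPKM in control cells and 1448, 1509 and 1424 FPKM with full-length NFIA (-0.27 ± 0.06).

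Proteases and their inhibitors were raised and lowered in equal number, 6 and 6 of 28 tested (of 39 listed), with a median of -0.09. Timp3, which inhibits metalloproteinases, was at 38.3, 46.5 and 38.99 FPKM in control cells and 346, 363 and 385 FPKM with full-length NFIA (3.12 ± 0.07), Serpine2, which inhibits thrombin and plasminogen activators, at 10.7, 14.2 and 11.7 FPKM in control cells and 130.4, 142 and 142 FPKM with full-length NFIA (3.41 ± 0.08), and Adamtsl4, a fibrillin-binding protein without protease activity, at 3.25, 4.59 and 2.801 FPKM in control cells and 80.9, 82.6 and 84.7 FPKM with full-length NFIA (4.22 ± 0.11). Pcolce2 (2.93), an enhancer of procollagen cleavage, was raised as well, and Adamts9 was the raised protease (0.258, 0.493 and 0.381 FPKM in control cells and 15.7, 16.2 and 16.7 FPKM with full-length NFIA, 3.65 ± 0.07). All 6 lowered genes encode proteases, namely Plau (urokinase, -2.92), Adamts7 (-2.79), Htra1 (-2.40), Mmp15 (-2.29), Adamts4 (-2.21) and Adamts5 (-1.987). Pcolce, the most abundant member, had 476, 470.5 and 463 FPKM in control cells and 452, 464 and 477 FPKM with full-length NFIA, groups that overlapped and a log2 fold change of -0.02 ± 0.03 (adjusted p = 0.639). Aebp1, a secreted collagen-binding protein outside these lists, was at 171, 191 and 181 FPKM in control cells and 573, 620.3 and 571 FPKM with full-length NFIA (1.70 ± 0.05).

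Several of the largest rises lay outside the matrix lists. Angpt4, a ligand of the endothelial receptor TIE2, was at 4.81, 4.96 and 4.34 FPKM in control cells and 226, 222 and 221 FPKM with full-length NFIA (5.30 ± 0.04), and Gas6, the ligand of the TAM receptor tyrosine kinases, at 2.23, 2.59 and 2.497 FPKM in control cells and 98.2, 101 and 106 FPKM with full-length NFIA (4.90 ± 0.06). Penk, the precursor of enkephalins, was at 0.423, 0.922 and 0.481 FPKM in control cells and 38.6, 37.6 and 34.6 FPKM with full-length NFIA (4.57 ± 0.10), and Agt, the precursor of angiotensin, at 0.0229, 0.399 and 0 FPKM in control cells and 22.1, 24.5 and 27.04 FPKM with full-length NFIA (4.50 ± 0.12). These 4 genes also encode secreted proteins. Among signalling proteins, Fgf7, a growth factor for epithelia, was at 4.53, 4.49 and 4.13 FPKM in control cells and 59.5, 56.8 and 56.6 FPKM with full-length NFIA (3.45 ± 0.04), and Igf1, insulin-like growth factor 1, at 2.21, 2.76 and 2.05 FPKM in control cells and 27.2, 26.7 and 31.8 FPKM with full-length NFIA (3.15 ± 0.08). Igf1 thus rose while its binding proteins Igfbp2 and Igfbp5 fell, and another, Igfbp3, rose (2.03 ± 0.09). In the growth factor list, 9 of 43 tested members (of 49) were raised and 6 lowered, with a summed level of 3700 to 3750 FPKM in control samples and 1425 to 1459 FPKM in NFIA samples. The transcript 1700028M03Rik was at 0, 0.0785 and 0 FPKM in control cells and 22.6, 25.8 and 29.6 FPKM with full-length NFIA (4.71 ± 0.10).

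In the TGF-beta and BMP pathway, 5 of 29 tested genes (of 43 listed) were raised and 2 lowered. The ligand Bmp4 was at 30.4, 33.7 and 30.4 FPKM in control cells and 157, 157 and 152 FPKM with full-length NFIA (2.27 ± 0.04), and Tgfb3 at 42.5, 47.8 and 42.2 FPKM in control cells and 183, 193 and 199.7 FPKM with full-length NFIA (2.10 ± 0.05). Fst (follistatin), which neutralizes activins and myostatin, was at 1.67, 2.26 and 1.65 FPKM in control cells and 37.04, 35.3 and 39.6 FPKM with full-length NFIA (3.75 ± 0.08), while Inhbb, an activin subunit that follistatin binds, was at 33.4, 32.5 and 33.3 FPKM in control cells and 4.75, 5.05 and 4.71 FPKM with full-length NFIA (-2.55 ± 0.03). Smad6, the intracellular inhibitor that BMP signalling induces, was at 1.08, 1.59 and 2.01 FPKM in control cells and 16.9, 16.1 and 13.6 FPKM with full-length NFIA (2.70 ± 0.12). Smad9 (2.25), another Smad of the BMP branch, was raised too. The other lowered gene was the BMP antagonist Grem1 (-1.92). By the adjusted p alone 9 members were higher and 15 lower, and the median log2 fold change was -0.15.

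Adipocyte transcription factors were raised in part before any adipogenic stimulus. Cebpa was at 6.64, 7.28 and 6.18 FPKM in control cells and 40.8, 42.1 and 34.02 FPKM with full-length NFIA (2.37 ± 0.08, adjusted p = 7.93e-10), and Pparg, the nuclear receptor needed for fat cell formation, at 2.43, 2.24 and 2.09 FPKM in control cells and 12.9, 13.6 and 16.04 FPKM with full-length NFIA (2.22 ± 0.07, adjusted p = 3.32e-10). Cebpd, an early factor of the programme, was at 1.49, 1.67 and 1.75 FPKM in control cells and 10.8, 8.61 and 9.14 FPKM with full-length NFIA (1.991 ± 0.08), and Zfp423, a commitment factor of preadipocytes, at 0.194, 0.213 and 0.192 FPKM in control cells and 3.67, 3.72 and 3.47 FPKM with full-length NFIA (1.94 ± 0.06). For each of these 4 genes every NFIA sample lay above every control sample. With Nr4a1 (1.93) they made up 5 raised of 23 tested genes (of 30 listed). With a pseudocount of 5, Pparg (1.40), Cebpd (1.13) and Zfp423 (0.73) were below 3-fold and not called. Plac8, which has been placed upstream of C/EBPβ in brown fat, was lowered (37.01, 34.9 and 37.9 FPKM in control cells and 0.448, 0.683 and 0.634 FPKM with full-length NFIA, -4.57 ± 0.06). Cebpb (0.59), Ebf1 (0.31), Rxra (0.60) and Klf4 (32.4, 33.9 and 34.02 FPKM in control cells and 36.2, 36.5 and 34.8 FPKM with full-length NFIA, 0.10 ± 0.04) were not called. Prdm16 and Ebf2, brown fat regulators, were listed at 0 in all 6 samples.

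Lipid storage genes were raised in 4 of 28 tested cases (of 46 listed) and lowered in none. Lpl, lipoprotein lipase, was at 33.5, 38.8 and 31.7 FPKM in control cells and 366, 385 and 398 FPKM with full-length NFIA (3.43 ± 0.06), Plin4, a lipid droplet coat protein, at 1.96, 2.93 and 2.13 FPKM in control cells and 47.7, 53.7 and 57.7 FPKM with full-length NFIA (4.02 ± 0.10), and Aoc3, an amine oxidase of adipocytes and smooth muscle, at 1.39, 1.84 and 1.37 FPKM in control cells and 54.6, 57.6 and 61.5 FPKM with full-length NFIA (4.54 ± 0.07). Fabp4, the adipocyte fatty acid-binding protein, reached 11.1, 11.9 and 9.86 FPKM from 0.371, 0.2696 and 0.0563 FPKM (3.28 ± 0.48, adjusted p = 1.01e-04). Its SE and adjusted p also rest on the Δpro#3 samples, which spread more, at 7.37, 0.478 and 4.53 FPKM. The stearoyl-CoA desaturase Scd1 was higher by less than 3-fold (174, 179.6 and 181 FPKM in control cells and 355, 362 and 358 FPKM with full-length NFIA, 1.00 ± 0.03). Adipoq, Plin1, Cidec, Ucp1 and Cd36, named after their values were seen, were below 1 FPKM in each sample. Adipoq (adiponectin) was at 0, 0 and 0.0311 FPKM in control cells and 0.222, 0.0965 and 0.502 FPKM with NFIA, Plin1 at 0.022001, 0 and 0 and 0.815, 0.724 and 0.922 FPKM, and Cidec at 0, 0 and 0 and 0, 0.0461 and 0 FPKM. Ucp1, the uncoupling protein of brown fat, was listed at 0 in all 3 NFIA samples and at 0.0256, 0 and 0 FPKM in control samples. Cd36, the fatty acid transporter, had 0.676, 0.514 and 0.459 FPKM in control cells and 0, 0.0303 and 0 FPKM with NFIA. None of these 5 was tested, since their means were below the minimum.

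**Figure D4:**
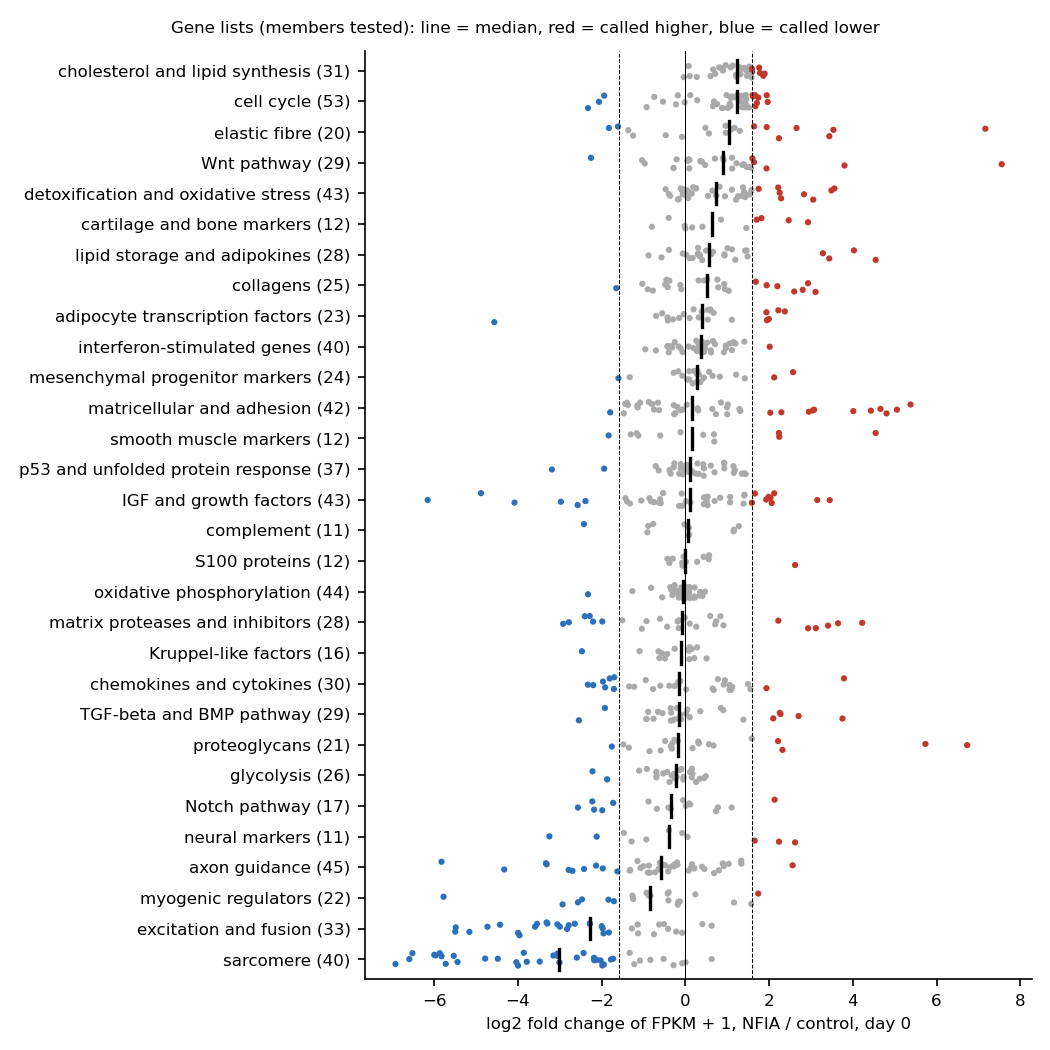
Log2 fold change of FPKM + 1, full-length NFIA over control at day 0, for the tested members of each gene list with 10 or more of them; each point is a gene, red called higher, blue called lower, grey not called, and the black line is the median. Sarcomere (median -3.03) and excitation and fusion genes (-2.28) lie to the left, and cholesterol synthesis (1.22), cell cycle (1.22) and elastic fibre genes (1.03) to the right.

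Most cell cycle and sterol genes were higher by amounts below 3-fold. Of 53 tested cell cycle genes (of 55 listed), 9 were raised and 3 lowered, but 44 were higher and 8 lower by the adjusted p alone, and the median log2 fold change was 1.22. Tk1, thymidine kinase, was at 19.4, 18.7 and 18.8 FPKM in control cells and 81.5, 74.7 and 74.8 FPKM with full-length NFIA (1.96 ± 0.06), and Rrm2, a ribonucleotide reductase subunit needed for DNA synthesis, at 41.8, 40.4 and 41.4 FPKM in control cells and 165, 155 and 163 FPKM with full-length NFIA (1.94 ± 0.04). The other raised genes were Mki67, Ccna2, Ccne2, Cdc20, Mcm4, Mcm5 and Aurkb, which act in replication and mitosis. Cdkn1a (p21), the inhibitor that halts the cycle in differentiating myoblasts, was at 161, 159.6 and 162 FPKM in control cells and 41.2, 41.3 and 40.8 FPKM with full-length NFIA (-1.94 ± 0.03), and Gadd45a, a stress-induced growth arrest gene, at 84.6, 81.4 and 83.5 FPKM in control cells and 16.8, 15.8 and 14.7 FPKM with full-length NFIA (-2.33 ± 0.04). E2f2, a cell cycle transcription factor, was lowered as well (12.2, 11.2 and 11.9 FPKM in control cells and 1.95, 1.97 and 2.22 FPKM with full-length NFIA, -2.07 ± 0.06).

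The 31 tested genes of cholesterol and related lipid synthesis (of 32 listed) had a median of 1.22, and 29 were higher by the adjusted p, none was lower and 6 passed 3-fold. Acat2, which makes acetoacetyl-CoA, was at 17.2, 18.6 and 16.9 FPKM in control cells and 69.1, 67.9 and 66.2 FPKM with full-length NFIA (1.89 ± 0.04), and Idi1, isopentenyl-diphosphate isomerase, at 6.29, 6.61 and 5.77 FPKM in control cells and 25.4, 25.97 and 24.2 FPKM with full-length NFIA (1.86 ± 0.05). The kinases Mvk (14.5, 13.97 and 14.5 FPKM in control cells and 52.3, 47.6 and 52.98 FPKM with full-length NFIA) and Pmvk (15.4, 13.1 and 12.99 FPKM in control cells and 54.6, 51.6 and 43.9 FPKM with full-length NFIA), which phosphorylate mevalonate in turn, were raised too. Fdps, farnesyl diphosphate synthase and one of the most abundant members, was just under 3-fold (93.4, 93.9 and 88.6 FPKM in control cells and 273, 267 and 261 FPKM with full-length NFIA, 1.53 ± 0.03). The number past 3-fold was 4 with median-ratio scaling and 1 with a pseudocount of 5.

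Detoxifying and antioxidant enzymes were raised in 8 of 43 tested cases (of 52 listed) and lowered in none, with a median of 0.73. Sod3, the extracellular superoxide dismutase, was at 7.98, 12.3 and 8.23 FPKM in control cells and 126, 121 and 114 FPKM with full-length NFIA (3.56 ± 0.12), and Gsta1, a glutathione transferase, at 0.4896, 0.554 and 0.312 FPKM in control cells and 13.5, 13.99 and 18.6 FPKM with full-length NFIA (3.49 ± 0.11). Aldh1a1, which makes retinoic acid from retinal, was at 0, 0.0729 and 0 FPKM in control cells and 6.88, 7.39 and 8.24 FPKM with full-length NFIA (3.05 ± 0.07). Other glutathione transferases (Gsta2, Gstm2, Gstt1, Gstt3 and Mgst1) made up the rest, and since the α and μ families hold near-identical copies, their split of unique fragments is uncertain. Intracellular Sod1 (0.24) and Prdx1 (0.19) hardly moved. Genes of energy metabolism were called at a share near that of all genes (5.24%). Of 26 tested glycolysis genes 2, the muscle isoforms Pygm (5.54, 5.85 and 5.86 FPKM in control cells and 0.394, 0.456 and 0.492 FPKM with full-length NFIA) and Pgam2 (3.86, 4.296 and 4.61 FPKM in control cells and 0.474, 0.437 and 0.3899 FPKM with full-length NFIA), were lowered, and 15 were lower and 7 higher by the adjusted p, with a median of -0.24, while Gapdh had 864, 819 and 807 FPKM in control cells and 718, 709 and 655 FPKM with full-length NFIA (-0.26 ± 0.05). Of 44 oxidative phosphorylation genes, the muscle and brown fat isoform Cox8b was lowered (4.41, 5.06 and 4.86 FPKM in control cells and 0, 0.218 and 0.243 FPKM with full-length NFIA), 18 were lower and 10 higher by the adjusted p, the median was -0.05 and Atp5b had 717, 702 and 703 FPKM in control cells and 670.2, 645 and 630.5 FPKM with full-length NFIA (-0.13 ± 0.03). Among 37 p53 and unfolded protein response genes the p53 targets Cdkn1a and Pmaip1 (14.6, 12.9 and 13.02 FPKM in control cells and 0.4704, 0.567 and 0.732 FPKM with full-length NFIA) were lowered, and the chaperones Calr (1.18 ± 0.04) and Hsp90b1 (0.93 ± 0.03) were higher by less than 3-fold. This list too was called at a share (5.41%) near that of all genes (5.24%). By the adjusted p alone, 19 of its members were higher and 9 lower, with a median of 0.12.

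The labels call the cells myoblasts, and the control samples had Myod1, Myf5, Myog, Cdh15 and Des at the levels given above. Markers of other lineages were raised in part. Of 24 tested markers of mesenchymal progenitors (of 39 listed), Cd34 (32.3, 36.1 and 29.6 FPKM in control cells and 197, 199.5 and 198 FPKM with full-length NFIA, 2.57 ± 0.06) and Pdgfra (4.06, 4.71 and 4.47 FPKM in control cells and 22.3, 22.6 and 22.6 FPKM with full-length NFIA, 2.12 ± 0.04), both used to mark fibro-adipogenic progenitors, were raised and Pi16 (-1.602) was lowered, though not called without control replicate 1 or without NFIA replicate 2 (-1.555 for each). Dpp4 and Dlk1 were listed at 0 in all 6 samples. The tendon list had 3 raised of 7 tested genes (of 12), namely Fmod, Comp and Col14a1, which also stand in the matrix lists, whereas the tendon factor Scx (-0.26) was not called. In the cartilage and bone list, 4 of 12 tested genes (of 25) were raised, of which 1 was not called without NFIA replicate 3 (1.487). Alpl, alkaline phosphatase, was at 0, 0.0136 and 0 FPKM in control cells and 4.74, 4.02 and 4.92 FPKM with full-length NFIA, the bone factor Dlx5 was listed at 0 in all control samples and at 2.96, 2.25 and 2.38 FPKM with NFIA, and the cartilage factor Sox9 was not called (11.1, 12.1 and 11.6 FPKM in control cells and 34.1, 33.2 and 32.9 FPKM with full-length NFIA, 1.45 ± 0.04), nor was Spp1 (osteopontin, 1932, 1719 and 1786 FPKM in control cells and 1054, 1039 and 1020.2 FPKM with full-length NFIA, -0.80 ± 0.05). Smooth muscle genes split, with Lmod1 (2.24), Ltbp2 (2.23) and Aoc3 raised, Myl9 lowered (199, 191 and 196 FPKM in control cells and 54.3, 55.4 and 52.4 FPKM with full-length NFIA) and Acta2 not called (949, 976 and 930.3 FPKM in control cells and 599, 620.2 and 661 FPKM with full-length NFIA, -0.60 ± 0.04).

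Most markers of blood and vessel cells were at or near 0. Of 20 macrophage markers 16 were not tested, 6 were listed at 0 in all 6 samples (Adgre1, Fcgr1, Tyrobp, C1qa, C1qb and Spi1), and Ptprc (CD45) was at 0.0149, 0.01296 and 0.00676 FPKM in control and 0.00689, 0 and 0 FPKM in NFIA samples. Lyz2 (lysozyme) was nevertheless raised (0.0798, 0.104 and 0.0725 FPKM in control cells and 9.82, 9.67 and 10.3 FPKM with full-length NFIA, 3.33 ± 0.05). Cd14, a receptor for bacterial lipopolysaccharide, had 6.19, 5.55 and 5.84 FPKM in control cells and 8.64, 7.78 and 9.41 FPKM with full-length NFIA (0.48 ± 0.06) and was not called. The summed level of the list was 8.70 to 9.05 FPKM in control samples, most of it Cd14, and 21.7 to 23.0 FPKM in NFIA samples. Of 18 endothelial markers 15 were not tested. The VEGF receptor Flt1 (1.08, 1.35 and 1.42 FPKM in control cells and 9.41, 9.14 and 9.01 FPKM with full-length NFIA) and the factor Sox18 (0, 0 and 0.0237 FPKM in control cells and 4.48, 4.21 and 4.42 FPKM with full-length NFIA) were raised, while Pecam1 had 0.0506, 0 and 0.02299 FPKM and 0.0117, 0 and 0 FPKM, and the sum was 2.91 to 3.01 FPKM against 15.8 to 16.4 FPKM. Of 11 tested neural and glial markers (of 24), the glial genes S100b (0.305, 0.133 and 0.138 FPKM in control cells and 6.08, 6.27 and 6.54 FPKM with full-length NFIA), Slc1a3 (16.6, 16.4 and 15.7 FPKM in control cells and 79.2, 80.1 and 80.9 FPKM with full-length NFIA) and Aldh1l1 (1.66) were raised, and the intermediate filaments Nes (283, 265 and 279 FPKM in control cells and 60.98, 62.7 and 63.9 FPKM with full-length NFIA) and Nefl (16.03, 14.003 and 16.1 FPKM in control cells and 0.702, 0.574 and 0.883 FPKM with full-length NFIA) were lowered. By the adjusted p alone, 3 of these 11 markers were higher and 7 lower, with a median log2 fold change of -0.40. S100b was also the raised member of 12 tested S100 genes, in which S100a4 (0.56) and S100a6 (-0.43) were not called. None of the other NFI genes was called. Nfib had 9.37, 9.65 and 9.73 FPKM in control cells and 9.94, 9.91 and 10.4 FPKM with full-length NFIA (0.07 ± 0.04) and Nfic 47.8, 52.4 and 54.2 FPKM in control cells and 56.9, 55.4 and 54.6 FPKM with full-length NFIA (0.11 ± 0.05). Nfix was higher by less than 3-fold, with 38.2, 43.1 and 43.98 FPKM in control cells and 69.3, 69.996 and 69.2 FPKM with full-length NFIA (0.72 ± 0.05). Among 16 tested Krüppel-like factors, Klf5 was the called gene.

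Called genes also stood side by side in the genome. There were 6 runs of 3 or more neighbouring tested genes called in the same direction, and 5 of them are given here because of their place and not by the rule for naming. Neighbours are counted without untested genes and genes that lack a single match in the annotation. Whether 6 runs are more than would arise without regard to place was not tested. Orm1, Orm2 and Orm3, acute phase proteins (orosomucoids), lie at chr4:63005594-63026912. Orm1 was at 0, 0.0471 and 0 FPKM in control cells and 10.5, 11.2 and 10.5 FPKM with full-length NFIA, Orm3 at 0.327, 0.238 and 0 FPKM in control cells and 7.02, 7.18 and 6.17 FPKM with full-length NFIA, and Orm2 was listed at 0 in all controls and at 3.98, 4.45 and 3.31 FPKM with NFIA. The 3 copies are alike, so that the split between them is uncertain. Scara5, Pbk and Esco2 were raised at chr14:66285240-66452831, a ferritin receptor (0.218, 0.1903 and 0.116 FPKM in control cells and 6.02, 6.303 and 6.93 FPKM with full-length NFIA) beside a mitotic kinase (1.76) and a cohesin acetyltransferase (1.70). The lowered runs were Mybph, Myog and Ppfia4 (-1.79) at chr1:136090025-136229505, Tnni2, Lsp1 (-1.63) and Tnnt3 at chr7:149627713-149701914, and the semaphorins above at chr5:12383166-14256689.

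The Δpro#3 mutant samples of day 0 were compared with the same control samples, so that the values are given side by side with no test of likeness. Nfia was at 423, 398 and 397 FPKM in the Δpro#3 samples. Mean levels of Sfrp2 were 7.07 FPKM in control, 1484 FPKM with full-length NFIA and 196 FPKM with Δpro#3. For Eln they were 0.485, 194 and 2.63 FPKM, and for Cebpa 6.7002, 38.98 and 15.96 FPKM. For these 3 genes the Δpro#3 mean lay between the others, but this did not hold for every raised gene. Cxcl12 was at 27.7, 109 and 233 FPKM, Mfap5 at 0.966, 21.9 and 25.9 FPKM, and Ltbp2 at 17.7, 86.8 and 10.7 FPKM. Among lowered genes, Mylpf stood at 339.9, 1.799 and 18.4 FPKM, Myog at 162, 1.96 and 16.3 FPKM, and Igfbp2 at 531, 6.46 and 22.4 FPKM. For those 3 the Δpro#3 mean was nearer to that with full-length NFIA. Myod1 was at 41.7 FPKM with Δpro#3, close to its control mean of 43.7 FPKM, against 17.8 FPKM with full-length NFIA.

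Finally, the effect of NFIA at day 0 was set against its effect at day 7, which used other samples. Of the 298 raised genes, 270 were tested at day 7 and 118 (43.7%) were called higher again, while 4 were called lower, at a time when 4.87% of all genes were called higher. Of the 336 lowered genes, 317 were tested at day 7, 139 (43.8%) were called lower again and 4 higher, with 3.3% of all genes called lower. The median log2 fold change of these raised genes went from 2.22 at day 0 to 1.38 at day 7, and that of the lowered genes from -2.21 to -1.45. The difference between both effects was tested over 12408 genes in a fit of the 18 samples of both times. NFIA's effect was called higher at day 7 for 562 genes (4.53%) and lower for 384 (3.09%). The genes called at day 0 were chosen by their day 0 values, which also enter the difference, so that a lean towards smaller effects at day 7 is in part set by the choice, and so is the drop of the medians. Of the 298 genes raised at day 0, the difference was called below 0 for 105 and above 0 for 17, and of 335 lowered genes it was called above 0 for 120 and below 0 for 11.

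Single genes show both ends. Sfrp2 reached 22.7, 24.9 and 24.5 FPKM in NFIA cells at day 7, with 8.99, 8.46 and 8.27 FPKM in control cells, so that its log2 fold change of 7.55 at day 0 was followed by 1.39 ± 0.19 (difference -6.17 ± 0.25, adjusted p = 1.88e-12). Clec3b went the other way, from 5.38 to 7.77 ± 0.13 (difference 2.39 ± 0.32, adjusted p = 4.66e-06), and its mean FPKM with NFIA was 72.3 times that of control cells at day 0 and 543 times at day 7. For Fabp4 the log2 fold change of FPKM + 1 went from 3.28 to 6.23 ± 0.46 (difference 2.95 ± 0.74, adjusted p = 0.00203). That difference depended on the added 1 FPKM, since the control mean of Fabp4 was 0.232 FPKM at day 0 and 151 FPKM at day 7, and the ratio of mean FPKM was 47.1 at day 0 and 75.5 at day 7. Mylpf was at 3216, 3173 and 3738 FPKM in control cells and 652, 485 and 558 FPKM in NFIA cells at day 7, a log2 fold change of -2.58 ± 0.11 (difference 4.34 ± 0.15, adjusted p = 2.29e-13). Pparg had 2.55 ± 0.08 at day 7 against 2.22 at day 0 (difference 0.33 ± 0.11, adjusted p = 0.0116), with ratios of mean FPKM of 6.64 and 6.29. Igfbp2 had -0.99 ± 0.39 (difference 5.17 ± 0.44, adjusted p = 2.06e-08). The differences were small for H19 (-2.75 ± 0.11 at day 7, difference -0.18 ± 0.11, adjusted p = 0.162) and Mgp (-3.61 ± 0.10, difference 0.42 ± 0.12, adjusted p = 0.00514).

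**Figure D5:**
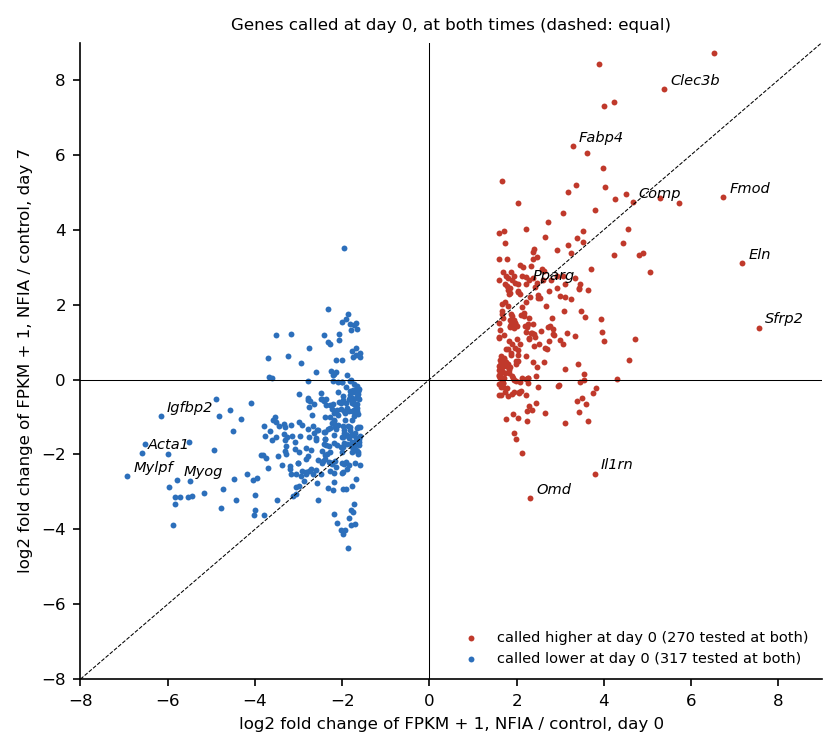
Log2 fold change of FPKM + 1, full-length NFIA over control, at day 0 (horizontal axis) and day 7 (vertical axis) for the genes called at day 0 and tested at both times; red called higher (270), blue called lower (317), and the dashed line marks equal changes. Most points lie on the same side of 0 at both times, with Sfrp2, Eln and Mylpf far from the dashed line and Omd and Il1rn on the other side of 0.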

How the data were processed

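Polyadenylated RNA of C2C12 cells was sequenced from stranded TruSeq libraries. The authors aligned reads to mm9 (NCBIM37) with STAR 2.5.3a, per the labels and methods, retained unique alignments, assigned fragments to genes by strand and deposited FPKM per gene, neither scaled between samples nor logged. Whole fragments were worked back from FPKM and gene length (tolerance 0.05) for the depth and for 1 alternative. Groups and replicate numbers came from the sample titles.

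limma 3.58.1 (R 4.3.3) was fitted to log2(FPKM + 1) of the 9 samples of day 0, with 1 mean per group and moderated variances following the trend, over genes with a mean of 0.5 FPKM or more. All p-values are 2-sided with Benjamini-Hochberg adjustment over all genes tested. The difference between times was fitted to 18 samples. The code was tested on simulated data. Tables and figures used Python 3.11.15, pandas 2.3.3 and matplotlib 3.10.9. The authors' symbols were kept, including 26 that had turned into dates, and 6 listed symbols were not found. Coordinates are those of the GENCODE M1 annotation.

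Genes named were Nfia, the 15 largest rises and falls in log2 fold change and the 8 in FPKM, up to 4 called and 2 abundant members of each list, the 5 largest differences in each direction, and genes that the study treats in C2C12 cells. A few genes that these rules or lists name are not reported here. Other list members and neighbouring genes were chosen after their values were seen. The members and the 34 lists were chosen with earlier results of these data known. Deviations of same-numbered samples of the groups were hardly correlated (0.0579, 0.0382 and 0.00217). This cannot decide whether the numbers pair samples by infection or culture, and the main fit did not pair them. Alternatives were a pseudocount of 0.1 or 5, median-ratio scaling, no filter or a minimum of 5 FPKM, the compared groups alone, no trend, the replicate number as a block, limma-voom with TMM scaling on fragments, leaving out each sample, and a 2-fold threshold. At this depth, values near 0 rest on few fragments, and an FPKM of 0 shows no more than that no unique fragment was counted.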

Additional observations from a re-analysis of the deposited data

Results flagged for a closer look

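The effect of full-length NFIA differed between day 7 and day 0, by the test of the difference itself, for 562 genes in the upward and 384 in the downward direction (limma, adjusted p under 0.05 and more than 3-fold). The 5 largest differences in each direction are given as log2 values, day 7 minus day 0.

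Upward, Cyp2e1, a microsomal cytochrome P450, had 8.68: it was listed at 0 in all 6 samples at day 0 and at 0.265, 0.308 and 0.442 FPKM in control and 500.2, 643 and 509 FPKM in NFIA cells at day 7. Rbp4, the retinol carrier of plasma, had 7.66, with 0.0975, 0 and 0 FPKM in control and 0.842, 0.917 and 0.885 FPKM in NFIA cells at day 0, and 0.101, 0.0458 and 0 FPKM in control and 366, 418 and 374 FPKM in NFIA cells at day 7. For both, the expression was found in NFIA cells at day 7. Cmbl, a hydrolase, had 7.01 and turned direction, from a log2 fold change of -1.11 ± 0.07 at day 0 to 5.90 ± 0.10 at day 7, where NFIA cells had 376, 422 and 372 FPKM. Ifi27l2a, an interferon-stimulated gene, had 6.66 (0.669, 0.942 and 1.06 FPKM in control and 300.1, 289.7 and 306 FPKM in NFIA cells at day 7), and Ppp1r1a, a phosphatase inhibitor, 6.46 (0.608, 0.78004 and 0.527 FPKM in control and 144, 139 and 139 FPKM in NFIA cells at day 7).

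Downward, Sfrp2 had -6.17 and kept its direction, whereas Il1rn (-6.30) and Omd (-5.49) turned. Il1rn was higher with NFIA at day 0 and lower at day 7 (38.8, 48.5 and 42.98 FPKM in control and 10.6, 4.78 and 5.95 FPKM in NFIA cells at day 7), and so was Omd (27.6, 35.7 and 25.9 FPKM in control and 2.103, 3.19 and 1.98 FPKM in NFIA cells at day 7). The difference of Myf6, -5.57, came with a rise in control cells, from 0.844, 0.765 and 0.768 FPKM at day 0 to 109.7, 114 and 156 FPKM at day 7, against 0.502, 0.428 and 0.702 FPKM in NFIA cells. 4930486L24Rik had -5.69, with 118, 130.1 and 133 FPKM in control and 2.06, 1.34 and 1.79 FPKM in NFIA cells at day 7 and at most 0.635 FPKM in the 6 samples at day 0. In these 2 genes, day 0 levels were below 1 FPKM in both groups.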

How the results depend on the processing

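At day 0, 298 genes were called higher and 336 lower. These counts were 558 and 524 with a pseudocount of 0.1, 122 and 133 with a pseudocount of 5, 198 and 203 with a minimum mean of 5 FPKM, 583 and 542 with limma-voom on fragments, and 848 and 692 with a 2-fold threshold. Leaving out 1 sample gave 298 to 314 higher and 334 to 343 lower genes. The difference between day 7 and day 0 gave 562 genes higher and 384 lower. With a pseudocount of 0.1, 632 were lower. A pseudocount of 5 gave 295 and 169, limma-voom 943 and 589, and a 2-fold threshold 1160 and 1150. Leaving out 1 sample gave 554 to 575 higher and 369 to 405 lower. Under the fit with a replicate block, the counts were 298 and 336 at day 0 and 562 and 384 for the difference, the same as without it. Not every sample correlated best with its own number (control replicate 3 with NFIA replicate 2, 0.00828).

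Median-ratio scaling, no filter, no trend and the compared groups alone kept each count within 1.5 times. For the 173 named genes tested at day 0, 3059 values kept direction and call, 32 lost the call, 29 of them with a pseudocount of 5, and 1 reversed: Pcolce, which was not called, was at -0.02 and ranged from -0.037 to 0.00232 when 1 sample was left out, above 0 without NFIA replicate 1. The calls lost with a pseudocount of 5 include those of Klf5, Pparg, Cebpd, Col2a1, Has2, Wnt10a, Fzd4, Cxcl13, Ccl11, Tap1, E2f2, Idi1, Pmvk, Mvk, Pygm, Pgam2, Cox8b, Pdgfra, Pi16, Lmod1, Alpl, Dlx5, Lyz2, Sox18, Flt1, S100b, Aldh1a1 and Zfp423. Larger pseudocounts shrink folds of genes with low values by construction, and NFIA replicate 3 is the least deep sample, with 11323688 fragments.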
